A study of Mus musculus with 20 samples.

Results

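Heat shock proteins and the CCT chaperonin were followed as a set of 37 genes in splenic natural killer (NK) cells of mice given selenium, the bracken fern toxin ptaquiloside, or both. The genes were taken by name from the array annotation, where 68 probes carry a member's name, and each gene was read from its brightest probe among those well above background on at least 5 of 20 arrays. That left 36 of the 37 genes, out of 17476 genes measured in all. Hsf2, which encodes heat shock factor 2, was above background on 0 of 20 arrays with both of its probes and has no level here. The set holds 10 stress-inducible chaperones and helpers, 13 constitutive members of the Hsp70 and Hsp90 systems, 4 mitochondrial chaperones, 8 subunits of the cytosolic chaperonin CCT and 2 heat shock factors.

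NK cells are lymphocytes that kill infected and transformed cells. They came from 20 male C57BL/6 mice, 5 to a group, which were gavaged daily for 14 days, and every array carried the RNA of 1 mouse. The groups received selenium at 1.3 mg/kg, ptaquiloside at 5.3 mg/kg together with selenium at 1.3 mg/kg, ptaquiloside alone at 5.3 mg/kg, or water as control. The cells were left unlabelled while other spleen cells were retained on magnetic columns, so cells that escaped depletion would add their RNA, and fewer cells of a type and less RNA per cell cannot be told apart. Of 15 listed NK markers 14 were measured, 12 of them above background on all 20 arrays. The B cell list had 9 of its 15 measured genes above background on all arrays, and the T cell list 8 of 12.

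Chaperones bind unfolded proteins and help them fold, and most of them work through cycles of ATP binding. When unfolded protein accumulates, heat shock factor 1 (Hsf1) trimerises, binds heat shock elements in DNA and drives the inducible chaperones Hspa1a, Hspa1b, Hsph1 and Hspb1. Constitutive relatives such as Hspa8 and Hsp90ab1 serve normal growth. CCT folds actin and tubulin, and in lymphocytes the whole system is in demand when cells enlarge and divide.

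Heat shock elements are inverted repeats of a 5-base unit, and they are shown because heat shock factor is known to bind such repeats. The letters GAANNTTC and TTCNNGAA (2 units), and the same followed by NNGAA or NNTTC to continue the alternation (3 units), were searched for on both strands in RefSeq promoters of build GRCm38.p6, which run from 250 bases before to 50 after each start. Each short motif reads the same on the opposite strand, the short motifs overlap the long ones, and a match is a description of letters only. Promoters were held for 30 of the 37 genes; Hsp90aa1, Hspa8, Hsp90ab1, St13, Hspa9, Cct4 and Hsf1 had no entry. The genes below carry the letters, given in capitals, in stretches printed 5′ to 3′ on the gene's strand.
Hspa1a (chr17:34972197-34972296, minus strand): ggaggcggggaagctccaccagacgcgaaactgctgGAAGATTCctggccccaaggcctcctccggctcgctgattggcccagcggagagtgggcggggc
Hspa1b (chr17:34959279-34959378, minus strand): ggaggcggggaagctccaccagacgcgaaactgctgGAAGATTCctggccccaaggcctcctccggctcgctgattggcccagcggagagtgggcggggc
Hspe1 (chr1:55088028-55088107, plus strand): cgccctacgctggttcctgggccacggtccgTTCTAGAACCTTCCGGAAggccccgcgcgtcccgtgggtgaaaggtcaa
Hsph1 (chr5:149636337-149636426, minus strand): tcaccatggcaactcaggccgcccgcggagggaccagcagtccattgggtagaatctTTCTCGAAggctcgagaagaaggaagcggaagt
Hspb1 (chr5:135887789-135887848, plus strand): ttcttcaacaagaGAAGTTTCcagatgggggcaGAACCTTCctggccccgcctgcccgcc
Fkbp4 (chr6:128438777-128438826, minus strand): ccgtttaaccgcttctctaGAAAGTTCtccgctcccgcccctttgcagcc
Chordc1 (chr9:18292263-18292285, plus strand): GAACGTTCGGGAAAATTCCTGAA

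At least 2 units were present in 14 of the 30 genes, against 17.0% of all 27025 genes with a promoter. Among inducible members 8 of 9 had them, Dnajb1 being the exception, against 1 of 10 constitutive members (Fkbp4), 2 of 3 mitochondrial members (Hspd1 and Hspe1) and 3 of 7 CCT subunits (Cct2, Cct5 and Cct6a). Because the inducible genes were assigned to that class for their known response to heat, this share is not independent of the class. The constitutive label does not exclude that a gene, such as Fkbp4, also responds to heat, which was not tested. Runs of 3 units were found in Hsph1 (after its start, outside the stretch printed), Chordc1, Hspd1 and Hspe1, and in 0.603% of all 32851 promoters. The promoters of Hspa1a and Hspa1b were identical at 296 of 300 bases and over all 100 bases printed. Hspd1 and Hspe1, which encode the mitochondrial chaperonin and its lid, are read in opposite directions, with Hspd1 starts at 95 and -216 bases from the Hspe1 start, so the element printed for Hspe1 is also the one counted for Hspd1.

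**Figure D1:**
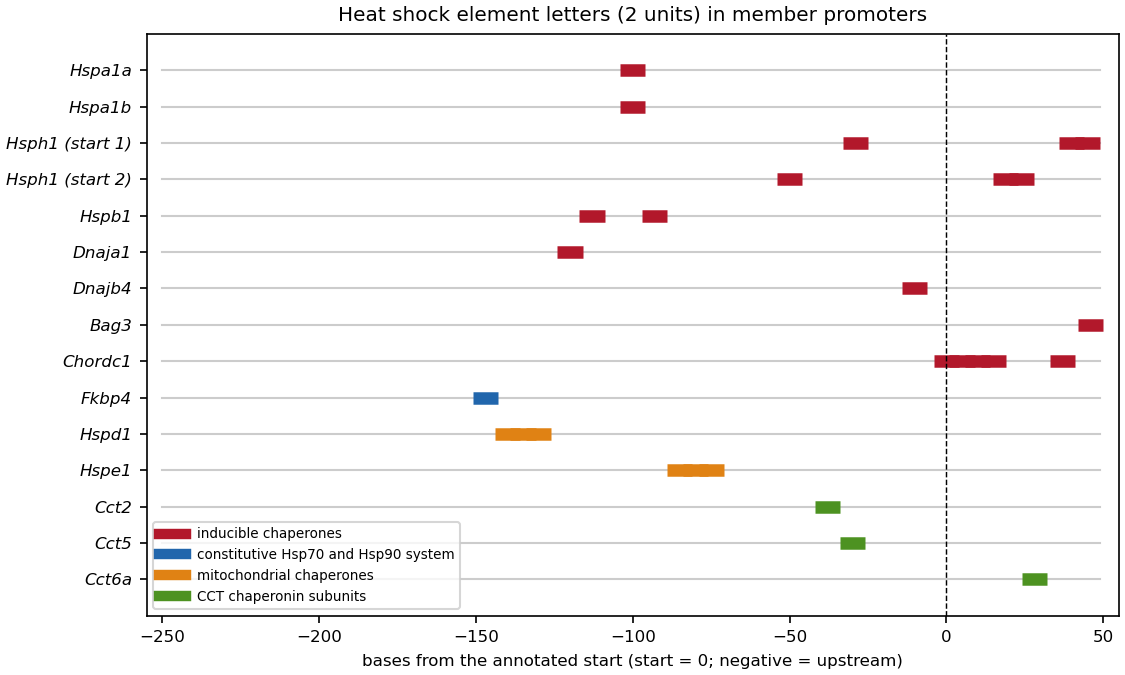
Positions of the 2-unit heat shock element letters in the 15 member promoters that hold them, in bases from the annotated start, coloured by role. Overlapping bars, as in Chordc1, Hspd1 and Hspe1, form runs of 3 or more units, and 9 of the 15 promoters belong to inducible members.

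A level is the log2 processed signal of the probe minus the 75th percentile of its array, so 0 is the 75th percentile. Levels belong to a probe and are compared between mice, not between genes. Ptaquiloside mouse 4 gave a dim array, whose 75th percentile was 10.5 scanner units, against 45.5 to 133 for the remaining 19. Only 36.3% of its spots cleared background by the scanner's flag, compared with 51.7% to 60.8% elsewhere. The dim array correlated with the rest at 0.628 to 0.757 across genes, whereas the other 19 correlated with each other at 0.936 to 0.990. The array of mouse 5 given both compounds was the next dimmest, at 45.5. Each slide carried the same mouse number of all 4 groups, and each group always had the same place on the slide, so place and treatment cannot be told apart. Tests are limma's moderated tests, two-sided, with Benjamini-Hochberg adjustment over all 17476 genes. Each SE of a difference is limma's and pools the spread within all 4 groups. Unless left out, the dim array therefore enters the SE of selenium against control as well.

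The comparison of selenium with control asked what the trace element alone did to the isolated cells. Of the 36 chaperone genes 32 had a higher mean in selenium-treated mice and 4 a lower one (Bag3, St13, Ptges3 and Cct6a). Over all genes 52.7% were higher with selenium. Among genes above background on all 20 arrays 61.4% were higher, with a median of 0.05. The members among them had 23 of 27 higher, with a median of 0.17. Quantile normalization gave 25 higher and 11 lower, where 51.8% of all genes were higher. Median centring and normexp background correction each gave 34 and 2, where 63.1% and 42.3% of all genes were higher. The authors' deposited table, unscaled between arrays and without control mouse 1, gave 21 and 15. There 29.6% of all genes were higher, and the median of all genes was -0.12. The members' median log2 difference was 0.15, against 0.01 over all genes. The leading differences, 1.32- to 1.47-fold, belonged to Hspa1a, Hspa1b, Hsph1, Stip1 and Hspd1. No single gene passed the test: limma called 0 of the 36 members and 0 of 17476 genes (0%), with an adjusted p of 1.00 for every member. At an unadjusted p under 0.05 there was 1 member, Stip1, beside 184 genes in all (1.05%). The methods' t-test, run on probes with Benjamini-Hochberg adjustment, likewise called 0 of 41174, with 1012 at an unadjusted p under 0.05, of which 1 was a member's probe.

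**Figure D2:**
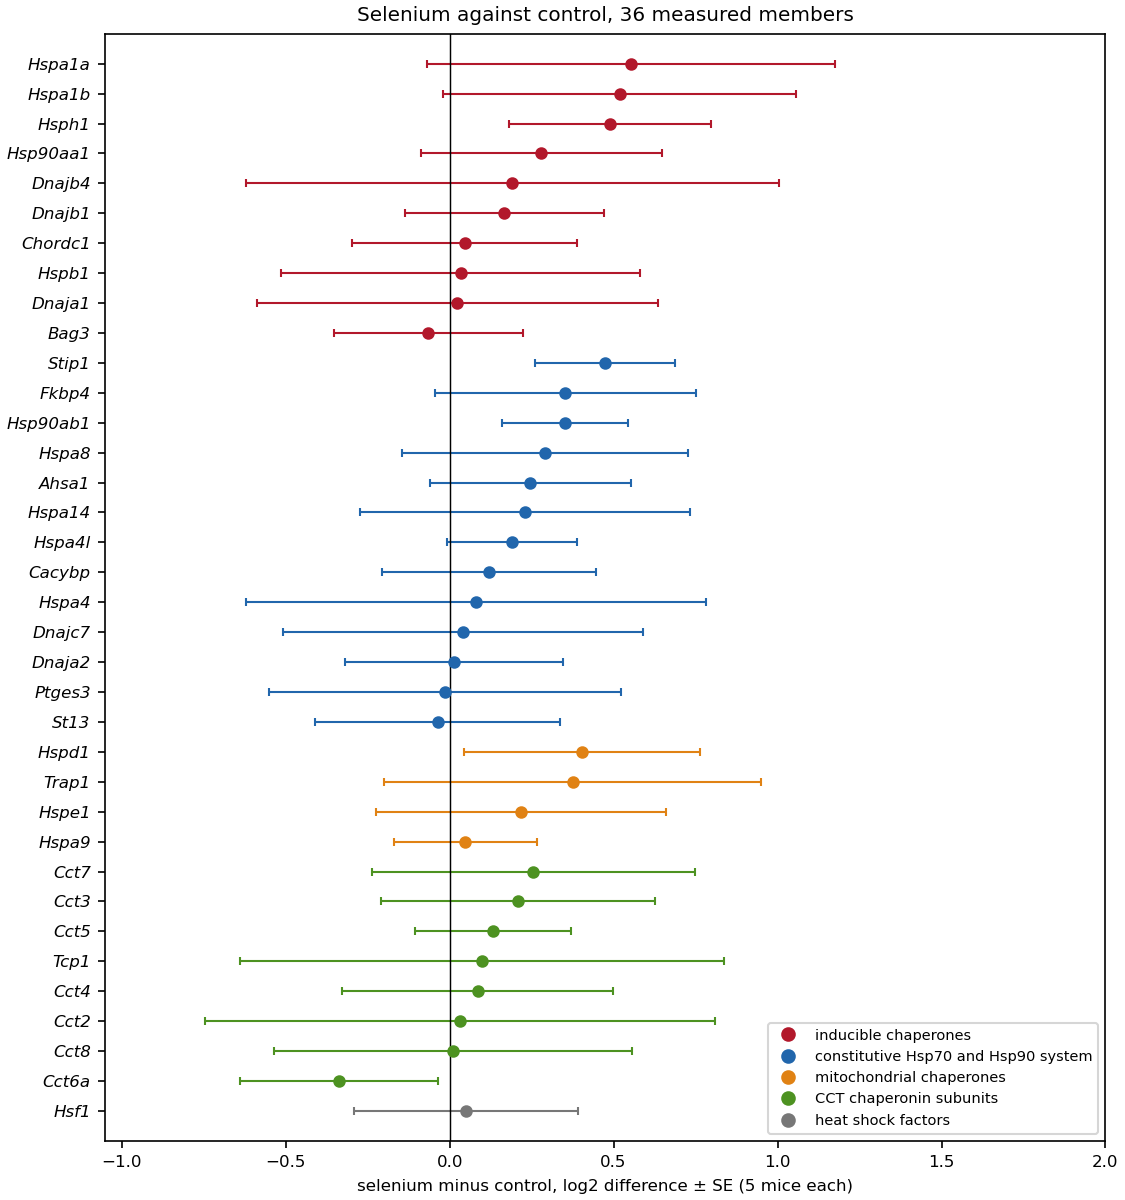
Log2 difference of selenium minus control for the 36 measured chaperone genes, as points with the SE from limma (5 mice per group), grouped and coloured by role. All but 4 points lie to the right of 0, from Hspa1a at 0.55 to Cct6a at -0.34, and most error bars cross 0. The SE pools the spread of all 4 groups, with the dim array of ptaquiloside mouse 4 included.

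The inducible class held 9 genes with a higher and 1 with a lower mean in selenium-treated mice, with a median difference of 0.18, which was 0.10 without control mouse 4 and 0.12 without selenium mouse 2. Hspa1a and Hspa1b encode the stress-inducible Hsp70 (Hspa1a probe at chromosome 17, 35106766 to 35106825, mm9), and as close copies their probes may each read both transcripts, which was not tested. The Hspa1a levels were 4.08, 2.81, 3.67, 3.60 and 2.89 in selenium mice 1 to 5 and 3.81, 3.59, 2.78, 1.25 and 2.86 in control mice 1 to 5. Selenium mouse 1 stood highest and control mouse 4 lowest, and the groups overlapped. The mean was higher with selenium by 0.55 ± 0.62 (SE), on 4 of 5 slides. Leaving out control mouse 4 made the difference 0.15, and leaving out control mouse 1 made it 0.79. Hspa1b was at 2.27, 0.68, 1.69, 1.99 and 0.87 in selenium mice 1 to 5, against 1.79, 1.49, 0.98, -0.32 and 0.95 in control mice 1 to 5. Here too the groups overlapped, with control mouse 4 lowest. It was higher by 0.52 ± 0.54 (SE), on 3 of 5 slides. Without control mouse 4 it was 0.19, and without selenium mouse 1 it was 0.33.

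Hsph1 encodes the large Hsp110 chaperone that exchanges nucleotide on Hsp70. Hsph1 measured 2.26, 2.88, 2.90, 2.75 and 2.00 in selenium mice 1 to 5, and 2.11, 2.42, 2.12, 1.66 and 2.03 in control mice 1 to 5. Selenium mice 2, 3 and 4 were above every control mouse, and mice 1 and 5 lay among them. The difference was 0.49 ± 0.31 (SE), higher on 4 of 5 slides. Hsp90aa1 encodes the inducible cytosolic Hsp90. The Hsp90aa1 levels were 6.18, 6.34, 6.04, 5.91 and 5.45 in selenium mice 1 to 5 and 6.00, 6.11, 5.73, 5.16 and 5.52 in control mice 1 to 5. The groups overlapped, with selenium mice 1 and 2 above all control mice. The mean was higher with selenium by 0.28 ± 0.37 (SE), on 4 of 5 slides. Without control mouse 4 that value was 0.14. Dnajb1 is the Hsp40 that delivers substrates to Hsp70. Dnajb1 was at 4.73, 4.96, 4.80, 4.72 and 4.57 in selenium mice 1 to 5, against 4.70, 4.75, 4.45, 4.53 and 4.53 in control mice 1 to 5. Selenium mice 2 and 3 were above every control mouse. It was higher by 0.17 ± 0.30 (SE), on 5 of 5 slides. Hspb1, the small heat shock protein that holds unfolded clients, showed no such order. Hspb1 measured -1.92, -1.75, -0.99, -1.31 and -2.89 in selenium mice 1 to 5, and -1.26, -2.05, -1.98, -1.87 and -1.85 in control mice 1 to 5. The selenium-treated mice reached beyond the control mice at both ends, and the difference was 0.03 ± 0.55 (SE).

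The remaining inducible members had differences within 1 SE of 0, where the SE pools all 4 groups, the dim array included. Dnajb4, a further Hsp40, was higher by 0.19 ± 0.81 (SE), Chordc1, an Hsp90 co-chaperone, by 0.05 ± 0.34 (SE), and Dnaja1, the Hsp40 of the A class, by 0.02 ± 0.61 (SE) over the 4 mice per group that had a value. The Dnajb4 value was 0.05 without control mouse 4 and 0.08 without selenium mouse 2. Bag3, which couples Hsp70 to autophagy, differed by -0.06 ± 0.29 (SE). A second, dimmer probe had the opposite sign for Bag3 (0.29), Chordc1 (-0.17) and Dnajb4 (-0.02), while both probes of Hspa1a, Hspa1b and Dnajb1 had the same sign. The dimmer probes of Dnaja1 differed by 0.15, above background on all 20 arrays, and by 0.12, above background on 19.

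Of the 13 constitutive members 11 had a higher mean with selenium, with a median difference of 0.19, which was 0.08 without control mouse 4 and 0.12 without selenium mouse 1. Stip1 encodes Hop, the adaptor that passes clients between Hsp70 and Hsp90, and its probe lies at chromosome 19, 7095433 to 7095492 (mm9). The Stip1 levels were 2.22, 2.32, 2.11, 2.31 and 1.52 in selenium mice 1 to 5 and 1.68, 2.05, 1.67, 1.55 and 1.16 in control mice 1 to 5. Selenium mice 1 to 4 were above every control mouse, and selenium mouse 5 lay inside the control range. The difference was 0.47 ± 0.21 (SE), 1.39-fold, higher on 5 of 5 slides by 0.27 to 0.76, with an unadjusted p of 0.0387 and an adjusted p of 1.00 from limma. Its unadjusted p was 0.0187 when ptaquiloside mouse 4 was left out of the shared estimate of spread.

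Hsp90ab1, the constitutive cytosolic Hsp90, followed the same order. Hsp90ab1 was at 6.04, 6.11, 6.09, 6.02 and 5.50 in selenium mice 1 to 5, against 5.64, 5.74, 5.61, 5.54 and 5.47 in control mice 1 to 5. Selenium mice 1 to 4 exceeded all control mice, and mouse 5 did not. The difference was 0.35 ± 0.19 (SE), with an unadjusted p of 0.0844, or 0.0252 without ptaquiloside mouse 4, and an adjusted p of 1.00 in both limma fits. Hspa8 encodes Hsc70, the constitutive cytosolic Hsp70. Hspa8 measured 6.10, 6.65, 6.42, 6.21 and 5.98 in selenium mice 1 to 5, and 5.83, 6.21, 6.08, 5.88 and 5.90 in control mice 1 to 5. Selenium mice 2 and 3 were above all control mice. The difference was 0.29 ± 0.44 (SE), higher on 5 of 5 slides. Hspa4l, an Hsp110 relative, had selenium mice 4 and 5 above all control mice. The Hspa4l levels were 0.48, 0.39, 0.47, 0.61 and 0.93 in selenium mice 1 to 5 and 0.38, 0.35, 0.30, 0.52 and 0.37 in control mice 1 to 5. The mean was higher with selenium by 0.19 ± 0.20 (SE), on 5 of 5 slides. Without selenium mouse 5 it was 0.10. Fkbp4, the immunophilin that links Hsp90 to steroid receptors, overlapped between groups. Fkbp4 was at 1.80, 1.34, 1.17, 1.28 and 0.53 in selenium mice 1 to 5, against 0.69, 1.57, 1.01, 0.41 and 0.68 in control mice 1 to 5. It was higher by 0.35 ± 0.40 (SE), on 3 of 5 slides. Without selenium mouse 1 it was 0.21.

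Among the other constitutive members Ahsa1, the activator of the Hsp90 ATPase, was higher on 5 of 5 slides by a mean of 0.25 ± 0.31 (SE). Hspa14, a ribosome-associated Hsp70, differed by 0.23 ± 0.50 (SE), but by 0.06 without selenium mouse 2 and 0.07 without control mouse 4. Cacybp, Hspa4, Dnajc7 and Dnaja2 differed by 0.12, 0.08, 0.04 and 0.01, and the Hspa4 probes ranged from -0.10 to 0.47. The Hsp90 co-chaperone Ptges3 (p23) and the Hsp70 cofactor St13 (Hip) differed by -0.01 and -0.04.

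All 4 mitochondrial members had a higher mean with selenium, with a median difference of 0.30. Hspd1 measured 5.19, 5.29, 5.19, 4.99 and 4.66 in selenium mice 1 to 5, and 5.14, 5.02, 4.60, 4.22 and 4.32 in control mice 1 to 5. Selenium mice 1 to 3 were above every control mouse, and control mice 3, 4 and 5 were the lowest of the 10. Hspd1 was higher by 0.40 ± 0.36 (SE), on 5 of 5 slides. Hspe1 was at 3.13, 3.58, 3.44, 3.23 and 2.71 in selenium mice 1 to 5, against 3.11, 3.55, 2.73, 2.72 and 2.88 in control mice 1 to 5. For Hspe1 selenium mouse 2 was highest and selenium mouse 5 lowest, so the groups overlapped, with a difference of 0.22 ± 0.44 (SE), or 0.13 without selenium mouse 2. Trap1, the mitochondrial Hsp90, differed by 0.38 ± 0.57 (SE) and Hspa9, the mitochondrial Hsp70 mortalin, by 0.05 ± 0.22 (SE), where its other probe differed by -0.10.

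The CCT subunits, which assemble into a double ring, had 7 higher means and 1 lower, with a median of 0.09. Tcp1 measured 3.57, 3.63, 3.62, 3.41 and 3.35 in selenium mice 1 to 5, and 3.45, 3.50, 3.55, 3.24 and 3.35 in control mice 1 to 5. Selenium mice 1 to 3 were above all control mice for this subunit, and the mean difference was 0.10 ± 0.74 (SE), or 0.05 without control mouse 4. That SE pools all 4 groups, and the SD of Tcp1 was 0.13 with selenium, 0.12 in control mice and 2.46 with ptaquiloside. The Cct6a levels were -0.05, -1.83, -0.39, -0.35 and -0.33 in selenium mice 1 to 5 and -0.18, -0.67, -0.03, -0.26 and -0.13 in control mice 1 to 5. For Cct6a selenium mouse 2 was the lowest of all 20 arrays, the mean difference was -0.34 ± 0.30 (SE), and without that mouse it was -0.03. Cct7 was higher on 5 of 5 slides by 0.25 ± 0.49 (SE). Cct3, Cct5, Cct4, Cct2 and Cct8 differed by 0.21, 0.13, 0.08, 0.03 and 0.01. A dimmer probe had the opposite sign for Tcp1 (-0.54), Cct4 (-0.76) and Cct2 (-0.13), in the first 2 cases with a larger size than the probe described. Across the set, 26 of the 36 members had a difference that shrank by over 1.5 times or changed sign when some single mouse of either group was left out.

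Hsf1 itself, the factor that drives the inducible class and is regulated mainly at the protein level, differed by 0.05 ± 0.34 (SE). The Hsf1 levels were 3.62, 4.33, 3.82, 3.78 and 4.16 in selenium mice 1 to 5 and 4.01, 3.91, 3.90, 3.85 and 3.78 in control mice 1 to 5. The selenium-treated mice lay on both sides of the control mice.

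**Figure D3:**
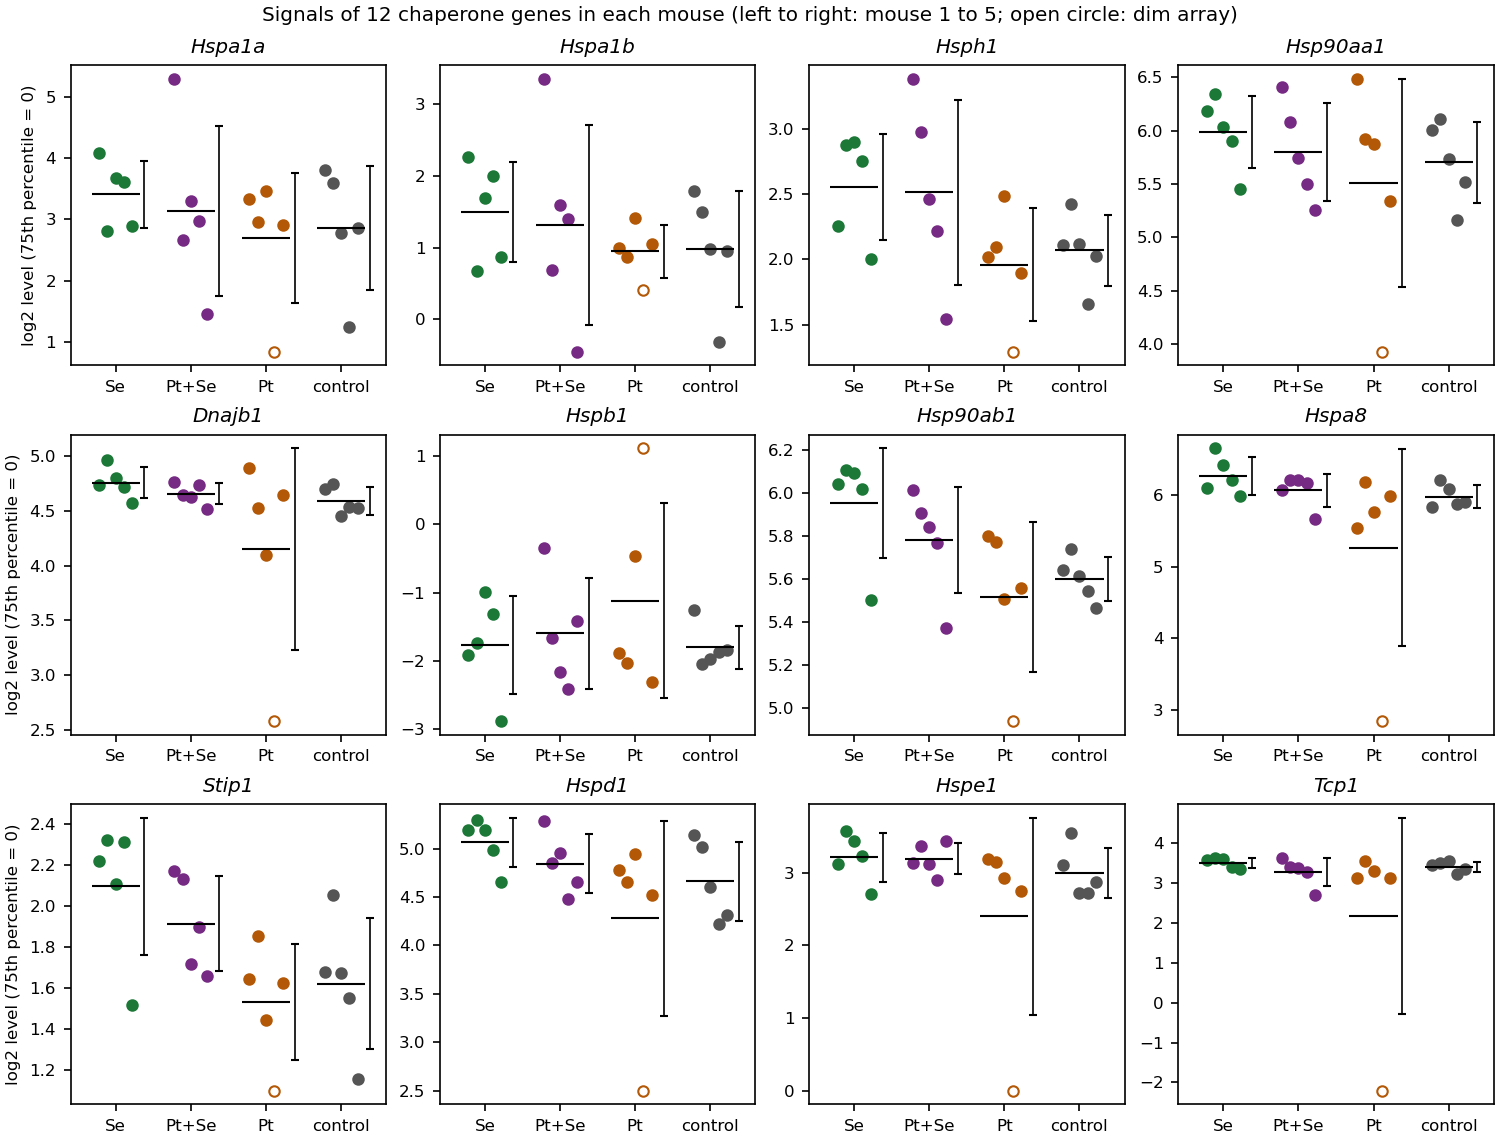
Log2 level of 12 chaperone genes in each mouse (Se, selenium; Pt+Se, both compounds; Pt, ptaquiloside), with the group mean as a line and the SD as a bar beside it, 5 mice per group. Selenium mice 1 to 4 stand above all control mice for Stip1 and Hsp90ab1, and the open circle is ptaquiloside mouse 4, the lowest array for 11 of the 12 panels' ptaquiloside groups, with Hspb1 the reverse.

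On 5 of 5 slides 8 members were higher with selenium (Dnajb1, Hspa4l, Hspa8, Hsp90ab1, Stip1, Ahsa1, Hspd1 and Cct7), where 5.37% of all genes were. Of these Dnajb1 is inducible, Hspd1 is mitochondrial and Cct7 belongs to CCT, and the other 5 are constitutive. For 0 of the 36 members was every selenium-treated mouse above every control mouse, beside 0.223% of all genes. The median over members was 0.13, 0.03, 0.29, 0.27 and -0.01 on slides 1 to 5, so slides 3 and 4 had the highest medians and slide 5 the lowest. With the slide as a block and ptaquiloside mouse 4 left out, limma gave 5 members an unadjusted p under 0.05 (Stip1, Hsp90ab1, Hspd1, Hspa8 and Cct7), beside 5.42% of all genes, and called 0, with adjusted p of 0.768 or above. Without the block, leaving out ptaquiloside mouse 4 changes no difference between selenium and control, only the estimate of spread. That limma fit gave Stip1 and Hsp90ab1 an unadjusted p under 0.05, beside 2.6% of all genes. With the block, where some values are missing, 31 members were higher with that array and 32 without it.

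Split by their promoter letters, the members had similar medians. Members with at least 2 heat shock units had a median difference of 0.16 (14 genes, from -0.34 to 0.55), and members without them 0.17 (15 genes, from -0.01 to 0.47). The pair with identical elements, Hspa1a and Hspa1b, differed by 0.55 and 0.52, while Hspb1 and Chordc1, which also carry the letters, differed by 0.03 and 0.05. Of the genes that share the element between Hspd1 and Hspe1, Hspd1 differed by 0.40 and Hspe1 by 0.22.

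Among the members, control mice varied most in the inducible Hsp70 genes. The SD among the 5 control mice was 1.00 for Hspa1a and 0.81 for Hspa1b, against a median of 0.29 over the inducible class, 0.16 over the constitutive members, 0.16 over CCT, 0.37 over the mitochondrial members and 0.32 over all genes. Mouse 1 given both compounds had the highest level of the 20 arrays in 11 members, Hspa1a, Hspa1b and Hsph1 among them, and selenium mouse 2 in 10. Ptaquiloside mouse 4 had the lowest level in 31. With that array set aside, mouse 5 given both compounds had the lowest level in 13 members, ptaquiloside mouse 3 in 6 and control mouse 4 in 4.

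The comparison of both compounds with control gave a smaller lean. Here 27 of 36 members had a higher mean in mice given both compounds and 9 a lower one, where 54.5% of all genes were higher, with a median of 0.07 against 0.02 over all genes. Median centring gave 22 higher and 14 lower, where 43.0% of all genes were higher. Normexp background correction gave 32 and 4, where 38.9% of all genes were higher. The authors' deposited values gave 11 and 25, where 19.3% of all genes were higher, with a median of -0.16. Limma called 0 members and 0 genes (0%), with an adjusted p of 1.00 for the members, 40 genes at an unadjusted p under 0.05, and 0 calls by the methods' t-test. The Hspa1a levels with both compounds were 5.29, 2.66, 3.30, 2.98 and 1.46. Mouse 1 given both compounds had the highest Hspa1a of all 20 arrays, and mouse 5 of that group lay near the lowest control mouse. Hspa1b was at 3.35, 0.69, 1.59, 1.40 and -0.45 in mice 1 to 5 given both compounds. Mice 1 to 5 given both had Hsph1 levels of 3.38, 2.98, 2.46, 2.22 and 1.54. In all 3 genes mouse 1 given both compounds was the highest of the 20 and mouse 5 the lowest of its group. Their differences from control were 0.28 ± 0.62, 0.34 ± 0.54 and 0.45 ± 0.31 (SE). Without mouse 1 given both compounds they were -0.26, -0.17 and 0.23, so the sign turned for the Hsp70 pair. Without control mouse 4 the Hspa1a difference was -0.13 and that of Hspa1b 0.01.

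The Stip1 levels with both compounds were 2.17, 2.13, 1.72, 1.90 and 1.66. Stip1 was the 1 member higher on 5 of 5 slides, where 1.51% of all genes were, by 0.29 ± 0.21 (SE), although mice 3, 4 and 5 lay inside the control range, and by 0.18 without control mouse 5. Hsp90ab1 was at 6.01, 5.91, 5.84, 5.77 and 5.37 in mice 1 to 5 given both compounds. Mice 1 to 5 given both had Hspa8 levels of 6.07, 6.22, 6.21, 6.17 and 5.66. Both genes had their lowest value in mouse 5, and they differed by 0.18 ± 0.19 and 0.09 ± 0.44 (SE). The Fkbp4 levels with both compounds were 1.58, 1.49, 0.93, 1.28 and 0.73. Fkbp4 differed by 0.33 ± 0.40 (SE), with every mouse inside or just above the control range, and by 0.21 without control mouse 4. Hspd1 was at 5.28, 4.86, 4.95, 4.48 and 4.66 in mice 1 to 5 given both compounds. Mice 1 to 5 given both had Hspe1 levels of 3.14, 3.37, 3.12, 2.91 and 3.44. The mitochondrial pair differed by 0.19 ± 0.36 and 0.20 ± 0.44 (SE), and mouse 1 of this group had the highest Hspd1 of the group. The Hspd1 difference was 0.08 without that mouse or without control mouse 4.

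The other described genes differed from control by -0.13 (Tcp1) to 0.20 (Hspb1) in this group. The Hsp90aa1 levels with both compounds were 6.41, 6.08, 5.74, 5.50 and 5.25. Dnajb1 was at 4.77, 4.65, 4.62, 4.74 and 4.52 in mice 1 to 5 given both compounds. Mice 1 to 5 given both had Hspb1 levels of -0.34, -1.66, -2.16, -2.42 and -1.42. Hsp90aa1 and Hspb1 were highest in mouse 1, and Dnajb1 varied least, and the differences from control were 0.09 for Hsp90aa1, 0.07 for Dnajb1 and 0.20 for Hspb1. The Hspa4l levels with both compounds were 0.67, 0.28, 0.31, 0.64 and 0.11. Tcp1 was at 3.63, 3.41, 3.38, 3.28 and 2.71 in mice 1 to 5 given both compounds. Mice 1 to 5 given both had Cct6a levels of 0.00, -0.44, -0.08, -0.11 and -1.03. Tcp1 and Cct6a were lowest in mouse 5, whose array was the dimmest of the group. The Hsf1 levels with both compounds were 4.12, 3.62, 4.11, 3.44 and 3.76. Hsf1 overlapped the control mice. By class the medians were 0.14 for inducible, 0.10 for constitutive, 0.11 for mitochondrial and 0.00 for CCT members. Without mouse 5 of this group and ptaquiloside mouse 4, 30 members were higher, with a median of 0.13, and 0 were called. In that setting 44.9% of all genes were higher, with a median of -0.02.

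Set against selenium alone, both compounds gave a lower mean in 26 of 36 members, with a median of -0.09, where 50.1% of all genes were higher. Median centring gave 32 lower, where 31.0% of all genes were higher, and normexp gave 21 lower, where 36.8% were higher. Limma called 0 members and 0 genes (0%), and 0 members had an unadjusted p under 0.05, beside 102 genes in all; the methods' t-test called 0. Hspa8, Hsp90ab1 and Cct7 were lower on 5 of 5 slides, where 2.48% of all genes were, with mean differences of -0.20, -0.17 and -0.19. Without mouse 5 given both compounds these were -0.10, -0.07 and -0.07, and without selenium mouse 2 Hspa8 and Cct7 differed by -0.11 and -0.12. Selenium-treated mice serve in this comparison and in the comparison with control, so both sets of values share them.

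The lower means with ptaquiloside depended on its dim array. Over 5 mice 33 of 36 members had a lower mean with ptaquiloside and 3 a higher one, with a median of -0.43 against 0.00 over all genes, of which 49.7% were higher. Ptaquiloside mouse 4 had the lowest level of its group in 32 members and the highest in 4 (Hspb1, Hspa4l, Cct6a and Hsf1). Without it 20 members were higher and 16 lower, the median was 0.01, and 49.8% of all genes were higher. That leaves slide 4 with a control mouse and no ptaquiloside mouse. With the slide as a block, 14 members were higher and 22 lower with a median of -0.01, where 51.9% of all genes were higher. Within slides 1, 2, 3 and 5, a setting chosen after seeing the data, 11 members were higher and 25 lower. Their median was -0.05, where 52% of all genes were higher. In the authors' deposited table, which lacks that array and control mouse 1, 14 members were higher and 22 lower. There 40.0% of all genes were higher, with a median of -0.06 over all genes. Limma called 0 members and 0 genes (0%) with it and without it, with adjusted p of 0.801 or above with it and 1.00 without it. Genes with an unadjusted p under 0.05 numbered 262 with it and 263 without it, 0 of them members, and the methods' t-test called 0.

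Hspa1a was at 3.33, 2.95, 3.45, 0.85 and 2.91 in ptaquiloside mice 1 to 5. For Hspa1b the ptaquiloside mice had 0.99, 0.87, 1.41, 0.40 and 1.06. In both genes mouse 4 was the lowest of its group and the other 4 mice lay inside the control range. The Hspa1a difference was -0.16 ± 0.62 (SE) with mouse 4 and 0.30 ± 0.59 (SE) without it, but within slides 1, 2, 3 and 5 it was -0.10, from means of 3.16 with ptaquiloside and 3.26 in control mice. Hsph1 levels with ptaquiloside were 2.02, 2.10, 2.49, 1.29 and 1.90. Hsp90aa1 was at 6.48, 5.92, 5.88, 3.93 and 5.34 in ptaquiloside mice 1 to 5. Ptaquiloside mouse 1 had the highest Hsp90aa1 of all 20 arrays and mouse 4 the lowest. For Dnajb1 the ptaquiloside mice had 4.89, 4.53, 4.09, 2.58 and 4.65. Hspb1 levels with ptaquiloside were -1.88, -2.04, -0.47, 1.12 and -2.31. Hspb1 was higher on the dim array than on the other 19. Tcp1 was at 3.13, 3.56, 3.30, -2.20 and 3.12 in ptaquiloside mice 1 to 5. The CCT subunit Tcp1 differed by -1.24 ± 0.74 (SE) with mouse 4 and by -0.14 ± 0.16 (SE) without it, and all 8 CCT subunits had a negative mean difference with it. The Tcp1 probe was above background on only 4 of 5 ptaquiloside arrays, so its level in mouse 4 may be background signal.

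For Hspa8 the ptaquiloside mice had 5.54, 6.19, 5.77, 2.84 and 5.99. Hsp90ab1 levels with ptaquiloside were 5.80, 5.77, 5.51, 4.94 and 5.56. Stip1 was at 1.64, 1.85, 1.44, 1.10 and 1.62 in ptaquiloside mice 1 to 5. These constitutive genes were lowest in mouse 4, and the differences without it were -0.11, 0.06 and 0.02. For Hspd1 the ptaquiloside mice had 4.78, 4.65, 4.94, 2.50 and 4.52. Hspe1 levels with ptaquiloside were 3.19, 3.15, 2.92, 0.00 and 2.75. Without mouse 4 the mitochondrial pair differed by 0.06 and 0.01. Fkbp4 was at 0.72, 0.89, 0.38, -1.71 and 0.53 in ptaquiloside mice 1 to 5. For Hspa4l the ptaquiloside mice had 0.33, 0.31, -0.37, 0.64 and 0.58. Fkbp4 was lowest and Hspa4l highest on the dim array within the group. Cct6a levels with ptaquiloside were -0.35, -0.43, -0.33, -0.29 and -1.20. Hsf1 was at 4.29, 3.85, 4.03, 6.15 and 3.68 in ptaquiloside mice 1 to 5. Hsf1, higher by 0.51 ± 0.34 (SE) with the dim array, differed by 0.07 ± 0.18 (SE) without it.

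**Figure D4:**
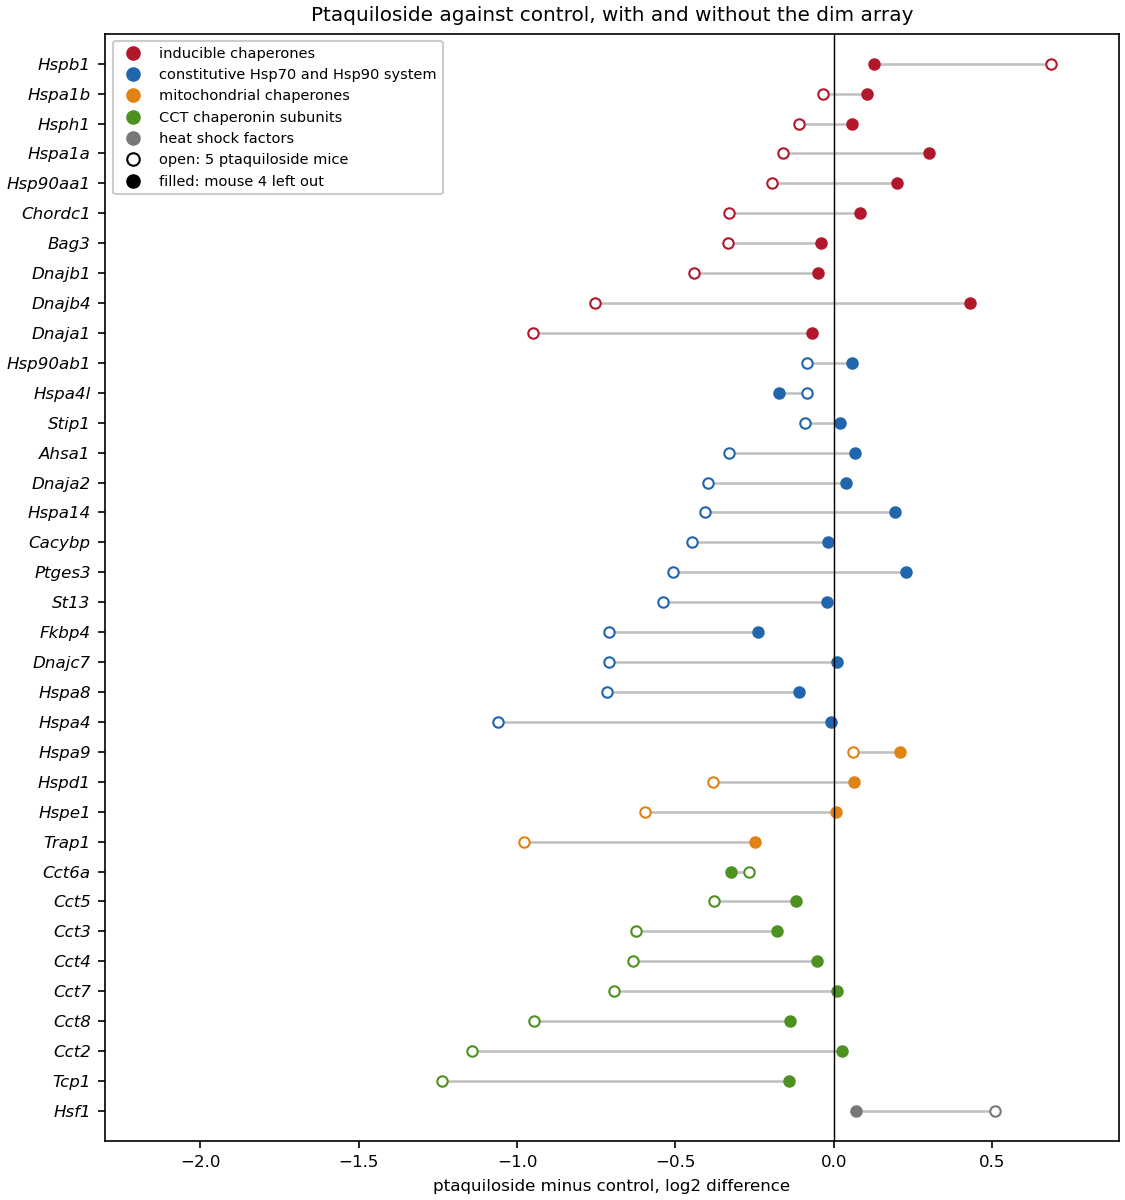
Log2 difference of ptaquiloside minus control for 36 chaperone genes, over 5 ptaquiloside mice (open) and over 4, with mouse 4 left out (filled), against 5 control mice. The open points reach -1.24 (Tcp1), whereas the filled points lie between -0.32 (Cct6a) and 0.43 (Dnajb4).

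The comparison of both compounds with ptaquiloside alone depended on the same array. With it 33 of 36 members were higher in mice given both, with a median of 0.53, where 51% of all genes were higher. Without it 27 were higher, with a median of 0.09, where 52.6% of all genes were. The authors' deposited table, which lacks that array, had 16 higher and 20 lower, where 35.4% of all genes were higher, with a median of -0.10 over all genes. Stip1, Cacybp, Fkbp4, Hspd1, Cct5 and Cct8 were higher on 5 of 5 slides, where 2.08% of all genes were. On slide 4 the comparison is with the dim array, the lowest of its group for each of these genes, so that slide adds little. The median over members was 2.18 on slide 4, against 0.22, 0.08, 0.16 and -0.07 on slides 1, 2, 3 and 5. Fkbp4 was higher by 1.04 ± 0.40 (SE) with an unadjusted p of 0.0171, and by 0.57 ± 0.26 (SE) with an unadjusted p of 0.0401 when mouse 4 was left out. It was the 1 member at an unadjusted p under 0.05 in either fit, beside 2.43% and 2.77% of all genes, and limma called 0 members and 0 genes (0%), as did the methods' t-test.

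Whether the selenium difference depended on ptaquiloside was tested as an interaction, and limma called 0 members and 0 genes (0%), with adjusted p of 0.998 or above for the members and 210 genes at an unadjusted p under 0.05. Leaving out mouse 4 given both compounds gave 1 call over all genes. The average over both selenium groups minus both groups without selenium uses all 20 arrays. It was higher in 33 of 36 members, where 50.8% of all genes were higher, with a member median of 0.36. Without ptaquiloside mouse 4 it was higher in 29 members with a median of 0.12, where 54.2% of all genes were higher. Limma called 0 members and 0 genes (0%). An unadjusted p under 0.05 was reached by 4 members, beside 369 genes in all or 2.11% of all genes. Stip1 stood at 0.43 ± 0.15 (SE), Fkbp4 at 0.70 ± 0.28 (SE), Hsph1 at 0.52 ± 0.22 (SE) and Hsp90ab1 at 0.31 ± 0.14 (SE). The same 4 genes also had an unadjusted p under 0.05 without ptaquiloside mouse 4, at 0.37, 0.46, 0.44 and 0.24, beside 3.66% of all genes, with adjusted p of 0.959 with it and 1.00 without it.

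Other genes of the same pathways were read from lists chosen by function. Limma called 0 of their members in selenium against control, with adjusted p of 1.00. Of 32 measured co-chaperones and regulators 24 were higher, with a median of 0.09, led by the Hsp90 kinase cofactor Cdc37 at 0.31 ± 0.20 (SE) and by Nudc at 0.27 ± 0.19 (SE). The list of small heat shock proteins was mostly too dim, with 3 of 8 genes measured. Among them were Hspb11, whose place on the list rests on its symbol only, at -0.31 ± 0.36 (SE), and the lens chaperone Cryab at 0.36 ± 0.49 (SE). Prefoldin, which hands actin and tubulin to CCT, and its helpers had 5 of 10 genes higher, with Pfdn6 at 0.23 and Pfdn2 at -0.11. Mitochondrial co-chaperones and proteases had 9 of 15 higher, with the disaggregase Clpb at 0.37 and the protease subunit Clpp at 0.24. Of 25 proteasome subunits 22 were higher, with a median of 0.11, Psmb3 at 0.26 and Psmb4 at 0.18. A list of further heat shock factor targets, which also holds the factor gene Hsf4, had 3 of 8 higher, with a median of -0.11. In it haem oxygenase Hmox1 stood at -0.96 ± 0.60 (SE). Hsf4 differed by -0.19 ± 0.48 (SE), at mean levels of -3.52 with selenium and -3.33 in control mice, whose SD was 1.33. The collagen chaperone Serpinh1 stood at -0.44 ± 0.70 (SE), above background on 1 of 5 selenium arrays and 3 of 5 control arrays.

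Genes of cell division and markers of other cells also had different means in selenium and control mice, and limma called 0 of them. All 32 measured cell division genes had a higher mean with selenium, with a median of 0.60, among them Ccne1 at 0.71 and Mcm7 at 0.51. The mean of these genes, relative to the control mean, was 0.72, 1.03, 0.92, 0.70 and -0.47 in selenium mice 1 to 5, against 0.18, 0.68, -0.13, -0.49 and -0.23 in control mice. The same mean over the 36 chaperone members was 0.29, 0.18, 0.28, 0.18 and -0.08 in selenium mice 1 to 5, against 0.14, 0.20, -0.01, -0.24 and -0.07 in control mice. In both lists selenium mouse 5 and control mouse 4 were the lowest of their groups.

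B cell markers were lower with selenium in 14 of 15 genes, with a median of -0.83, and their mean level ran from -1.09 to 0.05 in selenium-treated mice and from -0.35 to 1.00 in control mice. T cell markers were lower in 12 of 12, with a median of -0.36 and mean levels from -0.86 to -0.58 with selenium and from -0.60 to 0.44 in control mice. NK markers were higher in 14 of 14, with a median of 0.24 and mean levels from 4.70 to 5.39 with selenium and from 4.34 to 5.16 in control mice. Neutrophil markers were higher in 11 of 14, with a median of 0.55, and their mean level ran from 2.02 to 3.32 with selenium and from 2.07 to 2.49 in control mice. In the other groups the B cell mean ran from -1.31 to 1.24 with both compounds and from -1.46 to 0.75 with ptaquiloside, and the cell division mean, relative to control, from 0.07 to 0.83 and from -0.56 to 0.24. Macrophage and dendritic lists had medians of -0.34 and -0.26, and erythroid and plasma cell lists 0.08 and -0.15. The part of cell division and of cell makeup in the chaperone differences was not tested.

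**Figure D5:**
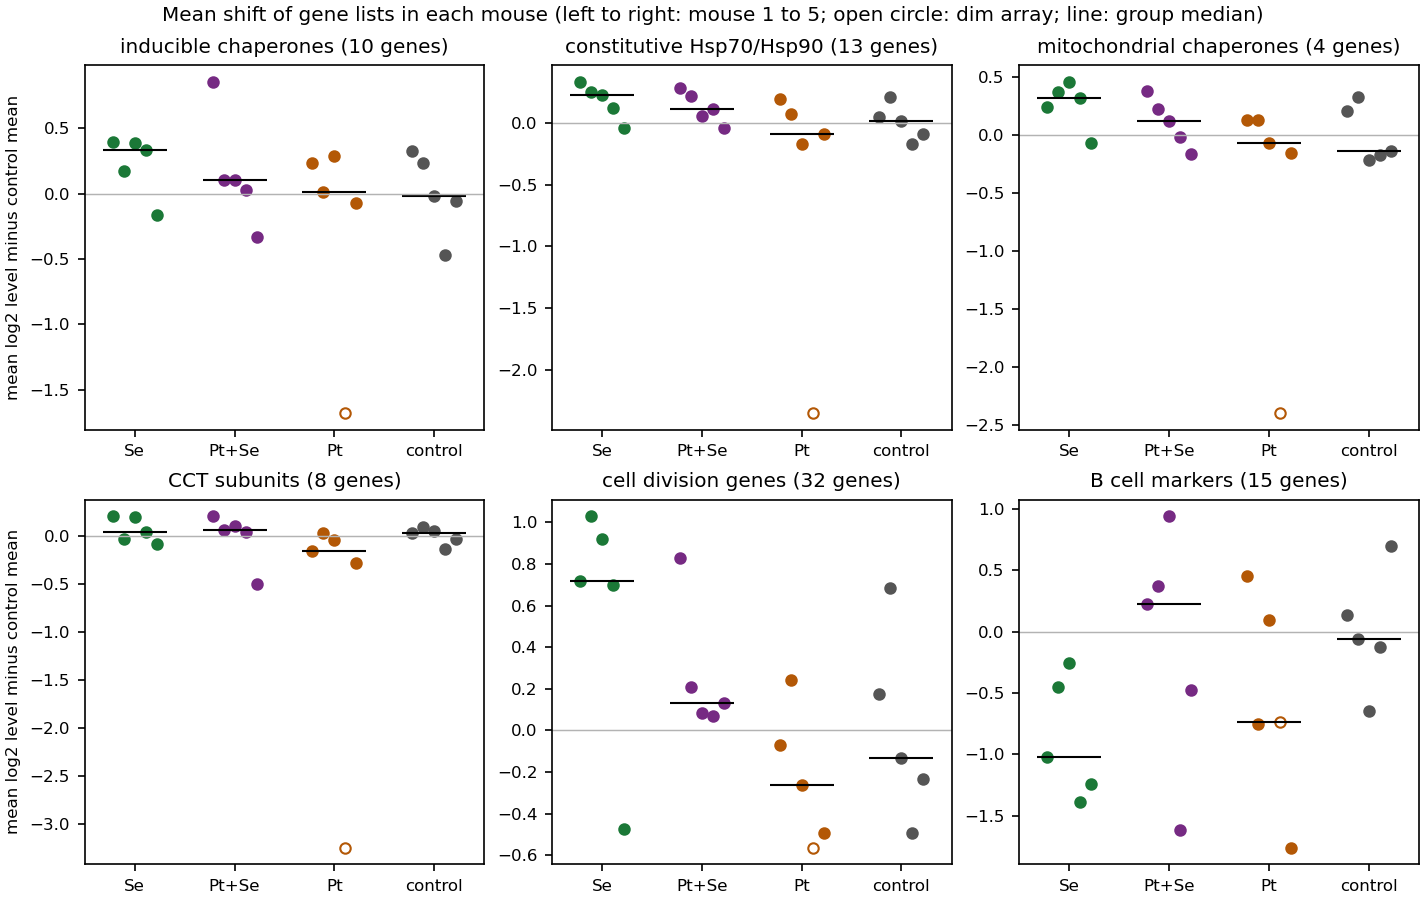
Mean log2 level of 4 chaperone classes, of 32 cell division genes and of 15 B cell markers in each mouse, relative to the control mean, with the group median as a line. Selenium mouse 5 lies below the other selenium-treated mice in the inducible, constitutive, mitochondrial, CCT and cell division panels, and ptaquiloside mouse 4 (open) is lowest in all 4 chaperone panels.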

How the data were processed

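Splenic NK cell RNA of 20 mice was hybridised to 1-colour Agilent arrays, 1 per mouse, and scanned with Agilent Feature Extraction 9.5.3.1, per the submitters' processing notes. The deposited scanner files give each spot's processed signal, an intensity after background subtraction, and other columns with flags and names, per the file headers. The authors' deposited table gives log2 values, which equalled the log2 processed signal plus a constant for most probes, with no scaling between arrays, and served as an alternative.

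Control spots and spots flagged as outliers were left out, and the remaining spots of a probe were averaged, with 278 values then missing. Log2 signals were set relative to each array's 75th percentile. Each gene was read from its brightest probe well above background on at least 5 of 20 arrays. Of 41174 probes 25097 were named through their accession and 16077 keep the file's name. Limma 3.58.1 in R 4.3.3 fitted 1 mean per group over all 20 arrays, called genes at an adjusted p of 0.05, and was tested on simulated data. Promoters came from RefSeq (GRCm38.p6), and probe coordinates are those of the files (mm9). No depth applies to arrays; the number of mice limits the precision. Samples are separate mice per the labels.

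Members and lists were chosen with earlier results of these data known. Genes given mouse by mouse were the named inducible, constitutive, mitochondrial, CCT and factor genes set by rule, and for each further list the 2 genes with the smallest p. Alternatives were another scaling, background correction, probe choice, filter, slide block, test, and the omission of each mouse.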

Additional observations from a re-analysis of the deposited data

Results flagged for a closer look

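In groups of 5 mice, the distance of the extreme mouse from its nearest neighbour was set against the range of the group. Chance alone exceeds the 95% limit in about 1 of 20 groups, and of 164 groups 46 exceeded it. Ptaquiloside mouse 4, the dim array, accounted for 30 of these, and 16 were other mice.

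Ptaquiloside mouse 4 stood apart from its group, with log2 levels among inducible genes of 0.85 for Hspa1a, 0.0051 for Dnaja1, -2.90 for Dnajb4 and -1.67 for Chordc1. Among constitutive genes it stood apart at -2.62 for Hspa4, 2.84 for Hspa8, 1.80 for Hspa14, 0.038 for Dnaja2, -1.40 for Dnajc7, -0.089 for St13, 2.23 for Ahsa1, 0.66 for Cacybp, -1.71 for Fkbp4 and -1.10 for Ptges3. The mitochondrial Hspd1, Hspe1 and Trap1 were at 2.50, 6.91e-05 and -2.80. The CCT subunits were at -2.20 for Tcp1, -0.30 for Cct2, -1.35 for Cct3, 1.12 for Cct4, 3.78 for Cct5, 1.15 for Cct7 and -0.99 for Cct8. Hsf1 lay above its group, at 6.15. The probes of Dnajb4, Chordc1, Hspa4, Fkbp4, Ptges3, Trap1, Tcp1, Cct3 and Cct8 were above background on only 4 of 5 ptaquiloside arrays. Mouse 4 was the lowest of its group for each of these genes, so its levels there may be background signal. The mean shift of this mouse from control was -2.24 over all members, -1.68 for inducible, -2.36 for constitutive, -2.40 for mitochondrial and -3.24 for CCT genes.

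Selenium mouse 5 was the low one of its group for Hsp90ab1 at 5.50, Stip1 at 1.52 and Trap1 at 0.92, and selenium mouse 2 for Cct6a at -1.83. Mouse 5 given both compounds was low for Hspa8 at 5.66, Ahsa1 at 3.89, Cct3 at -0.59 and Cct7 at 4.25, with a mean shift of -0.50 over the CCT subunits. Mouse 1 given both compounds stood apart for Dnaja2 at 2.01 and Cacybp at 3.35. Ptaquiloside mouse 5 was low for Cct6a at -1.20. Among control mice, mouse 1 stood apart for Hspb1 at -1.26 and Chordc1 at 0.14, mouse 3 for Cct4 at 3.88 and mouse 4 for Ptges3 at 2.09.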

How the results depend on the processing

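With each mouse left out in turn, the median member difference ran from 0.08 to 0.22 for selenium against control, from -0.62 to 0.01 for ptaquiloside against control, from 0.02 to 0.13 for both compounds against control, from 0.09 to 0.69 for both against ptaquiloside and from -0.16 to -0.03 for both against selenium. Genes called stayed at 0 to 0 in these comparisons and ran from 0 to 1 for the interaction, where mouse 4 given both compounds left out gave 1. With the authors' table, which has no scaling between arrays, the median for both compounds against control was -0.086, where that of all genes was -0.16. For selenium against control the member median in that table was 0.04 against -0.12 over all genes. There 21 members were higher and 15 lower, where 29.6% of all genes were higher. Quantile normalization gave 25 higher and 11 lower for selenium against control (median 0.09), where 51.8% of all genes were higher. Averaging all probes of a gene gave 28 and 8, where 50.4% of all genes were higher. Under median centring the all-gene median of ptaquiloside against control became -0.24. Without control mouse 4, 29 members were higher with selenium and the inducible median was 0.10; 11 members changed sign under some omission. Arrays of the same mouse number, which share a slide, correlated at a median of 0.445 after removing group means. Of these pairs 24 of 30 were over 0.1, and the lowest was -0.343. Arrays of different numbers correlated at a median of -0.080 (38 of 120 over 0.1). The reported fit leaves the slide out because the labels do not say that the authors used such a block. Its SE and p therefore take no account of the slide. With the slide as a replicate block, calls stayed at 0 and genes at an unadjusted p under 0.05 went to 331, against 184 without the block. Of member values under all settings, 2130 stayed within 1 SD of the reported value and 12 moved by more. Staying within 1 SD does not mean that a difference kept its sign. For selenium against control 7 of 36 members changed sign under quantile normalization and 11 with the authors' table. The cause of these shifts was not tested. Omitting both dim arrays was chosen after seeing the data. Probe signal over background limits Hsf2, which has no level.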
